A study of Mus musculus with 51 samples.

Results

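Cultured mouse neutrophils labelled as knockouts of the transcription factor IRF5 were compared with wild-type neutrophils in the absence of a microbial stimulus. IRF5-/- stands throughout for that label, which the transcript counts do not check. The comparison rests on 4 of the 51 samples of the series, which are 2 libraries labelled IRF5-/- and 2 labelled WT, all from the second set of ER-Hoxb8 RNA libraries and all given DMSO. The rule that chose them uses genotype and treatment labels, not measured values. The wider study profiled neutrophils of mice with a zymosan air pouch and ER-Hoxb8 neutrophils of 7 genotypes, counting wild type. ER-Hoxb8 cells are progenitors held in an immature state by an estrogen-regulated Hoxb8 protein. Both groups were differentiated for 5 days by estrogen removal in medium with G-CSF and stem cell factor, and then kept for 2 h with DMSO, the vehicle. Further groups used for reference were RELB-/- cells with DMSO, IRF5-/- and wild-type cells given zymosan (a yeast cell wall particle) at 50 µg/ml for 2 h, and the other ER-Hoxb8 lines with DMSO, again with 2 libraries each. The labels give neither the edit made in Irf5 nor the number of clones behind each genotype. They also do not say that the replicates were separate cultures, so p-values measure only the spread between these libraries, which may be technical.

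IRF5 belongs to the interferon regulatory factors, DNA-binding proteins that act downstream of Toll-like receptors. In macrophages it is activated through MyD88, TRAF6 and TAK1 when endosomal receptors bind nucleic acids, moves to the nucleus and takes part in switching on inflammatory cytokines such as IL-6, IL-12, IL-23 and TNF. Neutrophils store their antimicrobial proteins in azurophil, specific and gelatinase granules that are filled at successive stages of maturation, and they make cytokines and chemokines when activated.

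Levels are given as CPM, the read count scaled to library size by the TMM method, and differences as log2 changes, IRF5-/- minus wild type, with the standard error of the fit. A gene was called when edgeR's quasi-likelihood test gave a Benjamini-Hochberg adjusted p under 0.05 over all 13779 genes tested, and 2-fold called when the log2 change was also at least 1 in size. The 4 libraries held 27190993 to 30119102 counted read pairs, and the spread between replicates was small, with a common biological coefficient of variation of 0.019. At that spread small differences pass the test, so sizes matter more than calls: 64.6% of genes were called. The CPM of the 2 groups did not overlap in 11115 of the 13779 genes, so a lack of overlap does not set a gene apart. Between the wild-type libraries of set 2 and those of set 1, compared in a joint fit of both tables, 9636 of 13828 genes (69.7%) were called and 3285 (23.8%) were 2-fold called, so libraries of the same genotype label also differed, here with set and line together. Transcripts of the Y-linked gene Ddx3y were counted in the wild-type libraries of set 2 (14 and 17 counts) and had no count in IRF5-/- libraries. They also had no count in any other ER-Hoxb8 line with DMSO, the wild type of set 1 included. The wild type of set 2 thus stood apart from all these lines. Xist was counted in both groups compared (4122 and 4483 counts in IRF5-/-, 3885 and 4406 in wild type). What this says of the lines' origin was not tested. Since the labels name no independent lines within a genotype, the knockout and other differences between the cultures cannot be told apart.

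Irf5 transcript was still abundant in the cells labelled IRF5-/-. Irf5, on chromosome 6 from 29526625 to 29541871 of mm10 (+ strand), measured 81 and 81.8 CPM in the IRF5-/- libraries and 95.7 and 101 CPM in the wild-type libraries. The groups did not overlap, and the log2 change was -0.28 ± 0.03 (adjusted p = 4.4e-11, edgeR). After zymosan the levels were 112 and 108 CPM in IRF5-/- and 136 and 137 CPM in wild-type cells, again lower in both IRF5-/- libraries. RELB-/- libraries with DMSO held less, 38.4 and 39.1 CPM, so IRF5-/- cells exceeded RELB-/- cells by 1.07 ± 0.04 on the log2 scale. Gene-level counts do not show which exons the read pairs came from, and an edit that leaves the transcript in place would not be visible in them. Protein was not measured.

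Genes near Irf5 were read as a check on the locus. Any gene that overlaps Irf5 was left out, and the nearest one read on the right side, Ahcyl2, lay 226140 bases away. Of the 5 nearest measured protein-coding genes on the left side, Hilpda (a lipid droplet protein) fell most, from 6.64 and 7.22 CPM in wild type to 0.51 and 0.455 CPM in IRF5-/-, a log2 change of -3.84 ± 0.17. Impdh1, an enzyme of guanine nucleotide synthesis, changed by -2.21, Calu (a calcium-binding protein of the secretory pathway) by -1.25 and Atp6v1f (a proton pump subunit) by -0.25, while Fam71f2 was not called. On the right side Ahcyl2 rose by 0.40, Nrf1 by 0.14, Zc3hc1 by 0.38 and Ube2h (a ubiquitin-conjugating enzyme) by 1.28, and Klhdc10 fell, with a log2 change of -0.54. Both directions thus occurred around the locus. Over the 20 chromosomes with at least 100 genes tested, the median log2 change ran from -0.10 on chromosome 16 to 0.11 on chromosome 7.

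Among the other interferon regulatory factors, Irf8 and Irf4 fell most. Irf8, a factor that favours monocyte over granulocyte fate, measured 0.113 and 0.134 CPM in IRF5-/- and 3.45 and 4.21 CPM in wild type. Both IRF5-/- libraries were far below both wild-type libraries, with a log2 change of -4.91 ± 0.34 (adjusted p = 4.1e-22). Irf4, known from lymphocytes and dendritic cells, measured 0.198 and 0.348 CPM against 2.14 and 1.86 CPM (-2.84 ± 0.30). Both genes were at low levels even in wild type, and in bulk RNA fewer cells of a type and less RNA per cell cannot be told apart. Irf7, Irf9 and Irf1, which act in interferon responses, fell by smaller amounts, with log2 changes of -0.42, -0.35 and -0.23. Irf2 rose by 0.22, and Irf3 was not called (-0.07 ± 0.05). In all, 6 of the 8 family members tested, Irf5 included, were called lower and 1 higher, where 29.6% of all genes tested were called lower and 35.0% higher.

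Across all genes the strong changes were mostly decreases. In IRF5-/- cells 4827 genes were called higher and 4072 lower, but at 2-fold the balance turned, with 759 genes (5.51%) higher and 1935 (14%) lower. With scaling by total counts, the calls were 3719 higher and 4947 lower, so that 42.9% of calls were higher where TMM scaling gave 54.2%. With only the 4 libraries compared they were 4115 higher and 4532 lower, and without a filter on low counts 4008 and 4554. Which direction held more calls thus depended on the setting. Many of the 2-fold lower genes were rare transcripts: 657 stayed under 1 CPM in wild type, while 356 reached 10 CPM or more there. Of the 2-fold higher genes, 224 stayed under 1 CPM in IRF5-/- and 236 reached 10 CPM. The plot of all genes shows this tail of low transcripts below the axis, while the most abundant gene shown, the calcium-binding S100a9, changed by 0.30.

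**Figure D1:**
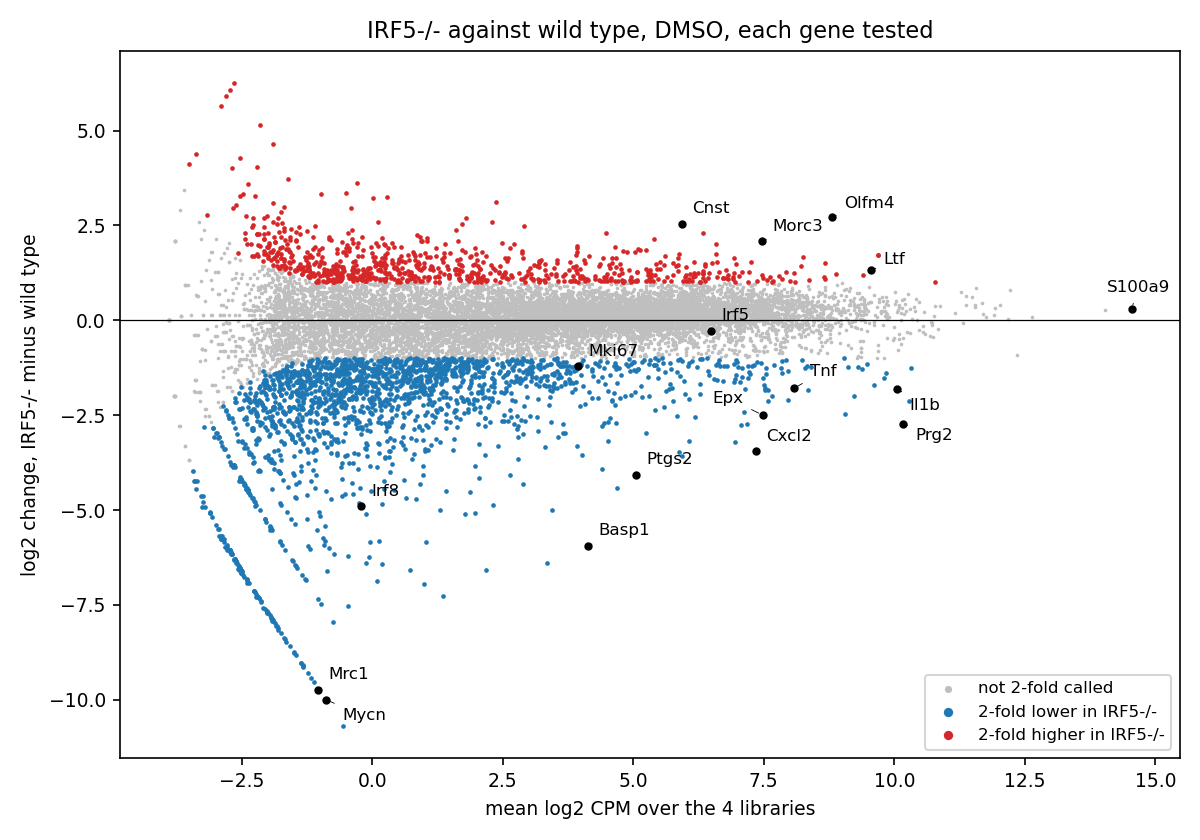
Each point is 1 gene, with its mean log2 CPM over the 4 libraries on the x axis and its log2 change, IRF5-/- minus wild type, on the y axis. Blue and red mark the 1935 and 759 genes 2-fold called lower and higher, black the named genes, and the straight diagonal lines at the lower left are genes with 0 or very few counts in IRF5-/-, whose fitted change is no bound.

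Inflammatory cytokine transcripts were lower in resting IRF5-/- cells. Of 18 cytokine genes tested, 13 were called lower and 2 higher, and 12 were 2-fold lower, with a median log2 change of -1.83 beside 0.04 over all genes tested. Il1b, the secreted form of interleukin-1 that neutrophils make in quantity, measured 568 and 567 CPM in IRF5-/- and 1991 and 1994 CPM in wild type. Tnf measured 146 and 143 CPM against 506 and 497 CPM. In both genes the 2 groups lay far apart, with log2 changes of -1.81 ± 0.02 (adjusted p = 4.2e-80) and -1.80 ± 0.02 (adjusted p = 4.9e-73). Il1a, which encodes the cell-associated form of interleukin-1, fell from 20.6 and 20.6 CPM to 2.63 and 2.49 CPM, and Il1rn, the natural antagonist of both, from 615 and 615 CPM to 173 and 171 CPM. Ligand and antagonist were thus lower together, with log2 changes of -3.00 and -1.84. Csf1, the growth factor of macrophages, fell from 1212 and 1202 CPM to 298 and 303 CPM (-2.01 ± 0.02). Markers of monocytes and macrophages, cells that also make these cytokines, were lower too: 13 of 15 were called lower, with a summed level of 884 to 893 CPM in IRF5-/- and 1340 to 1360 CPM in wild type, and their part in this and the next results was not tested.

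The cytokines most often linked to IRF5 in macrophages formed a list of 13 genes, of which 10 were called lower, each at least 2-fold, and none was called higher (35.0% of all genes were). The list's median log2 change was -1.82, and it was -2.14 in RELB-/- cells against the same wild type. Il23a, the specific subunit of IL-23, measured 0.283 and 0.402 CPM in IRF5-/- against 3.6 and 3.95 CPM in wild type, a log2 change of -3.44 ± 0.21. Il12a, a subunit of IL-12, measured 0.17 and 0.562 CPM against 1.65 and 1.36 CPM. Both IRF5-/- libraries were below both wild-type libraries in each gene. Il6 was close to the detection limit, with 1 count in all in IRF5-/- and a ratio of wild type to IRF5-/- of 11.7 (counting interval 1.75 to 497). Il10, an anti-inflammatory cytokine, had no count in IRF5-/- and was at least 3-fold lower against a floor of 3 counts over the group. Il12b had no count in any of the 4 libraries, and Ifnb1 (0.0566 and 0.214 CPM against 0.0784 and 0.047 CPM) and Ccl5 (0.736 and 0.214 CPM against 0.94 and 0.682 CPM) were not called.

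Chemokine transcripts were lower in resting IRF5-/- cells as well. Cxcl2, a ligand of the neutrophil receptor CXCR2, measured 49.6 and 48.9 CPM in IRF5-/- and 546 and 532 CPM in wild type, which is 11-fold lower (log2 change -3.45 ± 0.02, adjusted p = 2.1e-91). Ccl7, which attracts monocytes, had no count in either IRF5-/- library and 1.8 and 2 CPM in wild type, at least 46.1-fold lower against the same floor. Cxcl10, an interferon-induced attractant of T cells, fell from 57.9 and 57 CPM to 9.46 and 9.67 CPM (-2.59 ± 0.05). The macrophage inflammatory proteins Ccl3 and Ccl4 changed by -1.45 and -1.82, and Ccl2 by -2.66. Of 14 chemokines tested, 11 were called lower, 10 of them 2-fold, and only Ccl6 was called higher, by 0.14. The list's median log2 change was -2.62. Ccrl2, a non-signalling receptor that presents the attractant chemerin, fell from 373 and 370.1 CPM to 56 and 56.1 CPM, while the receptors Cxcr2 and C5ar2 rose by 0.55 and 0.82. C3ar1, a receptor for complement C3a, fell from 13.1 and 12.8 CPM to 0.396 and 0.402 CPM (32-fold lower).

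The regulators around these genes were lower as well. Of 16 NF-kB pathway genes, 15 were called lower and 1 higher, with a median log2 change of -1.01. The 5 DNA-binding subunits changed by -0.26 (Rela) to -1.21 (Relb). Nfkbie, an inhibitor that NF-kB itself induces, measured 25.6 and 26 CPM against 112 and 113 CPM (-2.12 ± 0.04), and Tnfaip3, the deubiquitinase A20, 97.4 and 101 CPM against 343 and 336 CPM (-1.78 ± 0.02). Nfkbia, the inhibitor IkB alpha, fell from 1052 and 1022 CPM to 434 and 420.0 CPM. Each IRF5-/- library was below each wild-type library in all 3 genes. Traf1, an adaptor of TNF receptors, was rare and had the largest change of the list (-4.49). Map3k14, the kinase of the alternative pathway, was the member that rose (0.41).

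Immediate early genes, which respond to signals within minutes, were lower in 18 of 19 cases, 13 of them 2-fold, with a median log2 change of -1.69. Egr1 measured 5.47 and 5.3 CPM in IRF5-/- and 83.9 and 79.5 CPM in wild type, 15.2-fold lower (-3.92 ± 0.06, adjusted p = 8.3e-65). Egr3 measured 8.75 and 8.06 CPM against 53.9 and 56.4 CPM (-2.72 ± 0.06). The orphan nuclear receptors Nr4a1, Nr4a2 and Nr4a3 changed by -2.55, -4.58 and -4.08. Among AP-1 subunits, Fos fell from 34.8 and 35.3 CPM to 12.5 and 10.5 CPM and Junb from 923 and 913 CPM to 472 and 467 CPM, whereas Fosl2 was the only member that rose, by 0.10. Ptgs2, the inducible cyclooxygenase that makes prostaglandins, was among the largest falls of abundant genes, with 8.41 and 7.69 CPM against 137 and 134 CPM (16.9-fold lower).

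The receptors and adaptors upstream of IRF5 did not share this pattern. Of 21 genes tested in the endosomal Toll-like receptor and IRF5 activation pathway, 14 were called higher and 6 lower, with a median log2 change of 0.19. Under scaling by total counts 9 of the 21 were called higher. Tlr7, a sensor of single-stranded RNA, measured 7.87 and 7.55 CPM in IRF5-/- and 23.7 and 24.8 CPM in wild type (-1.65 ± 0.07), while its neighbour Tlr8 measured 17.7 and 18.6 CPM against 8.49 and 9.12 CPM (1.04 ± 0.09). The 2 receptors thus moved in opposite directions, each without overlap. Irak4, the kinase that MyD88 recruits, rose by 0.57, Unc93b1, the chaperone of endosomal receptors, by 0.34, and Irak2 fell, with a log2 change of -0.79. Among surface sensors, Cd14, the lipopolysaccharide co-receptor, fell from 1408 and 1421 CPM to 426 and 439.6 CPM (-1.71 ± 0.02), and Tlr2 from 851 and 858 CPM to 361 and 364 CPM (-1.24 ± 0.02). Clec7a, which encodes the zymosan receptor Dectin-1, rose from 413 and 424 CPM to 530.1 and 525 CPM (0.33 ± 0.02), and Card9, its signalling adaptor, rose by 0.64.

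**Figure D2:**
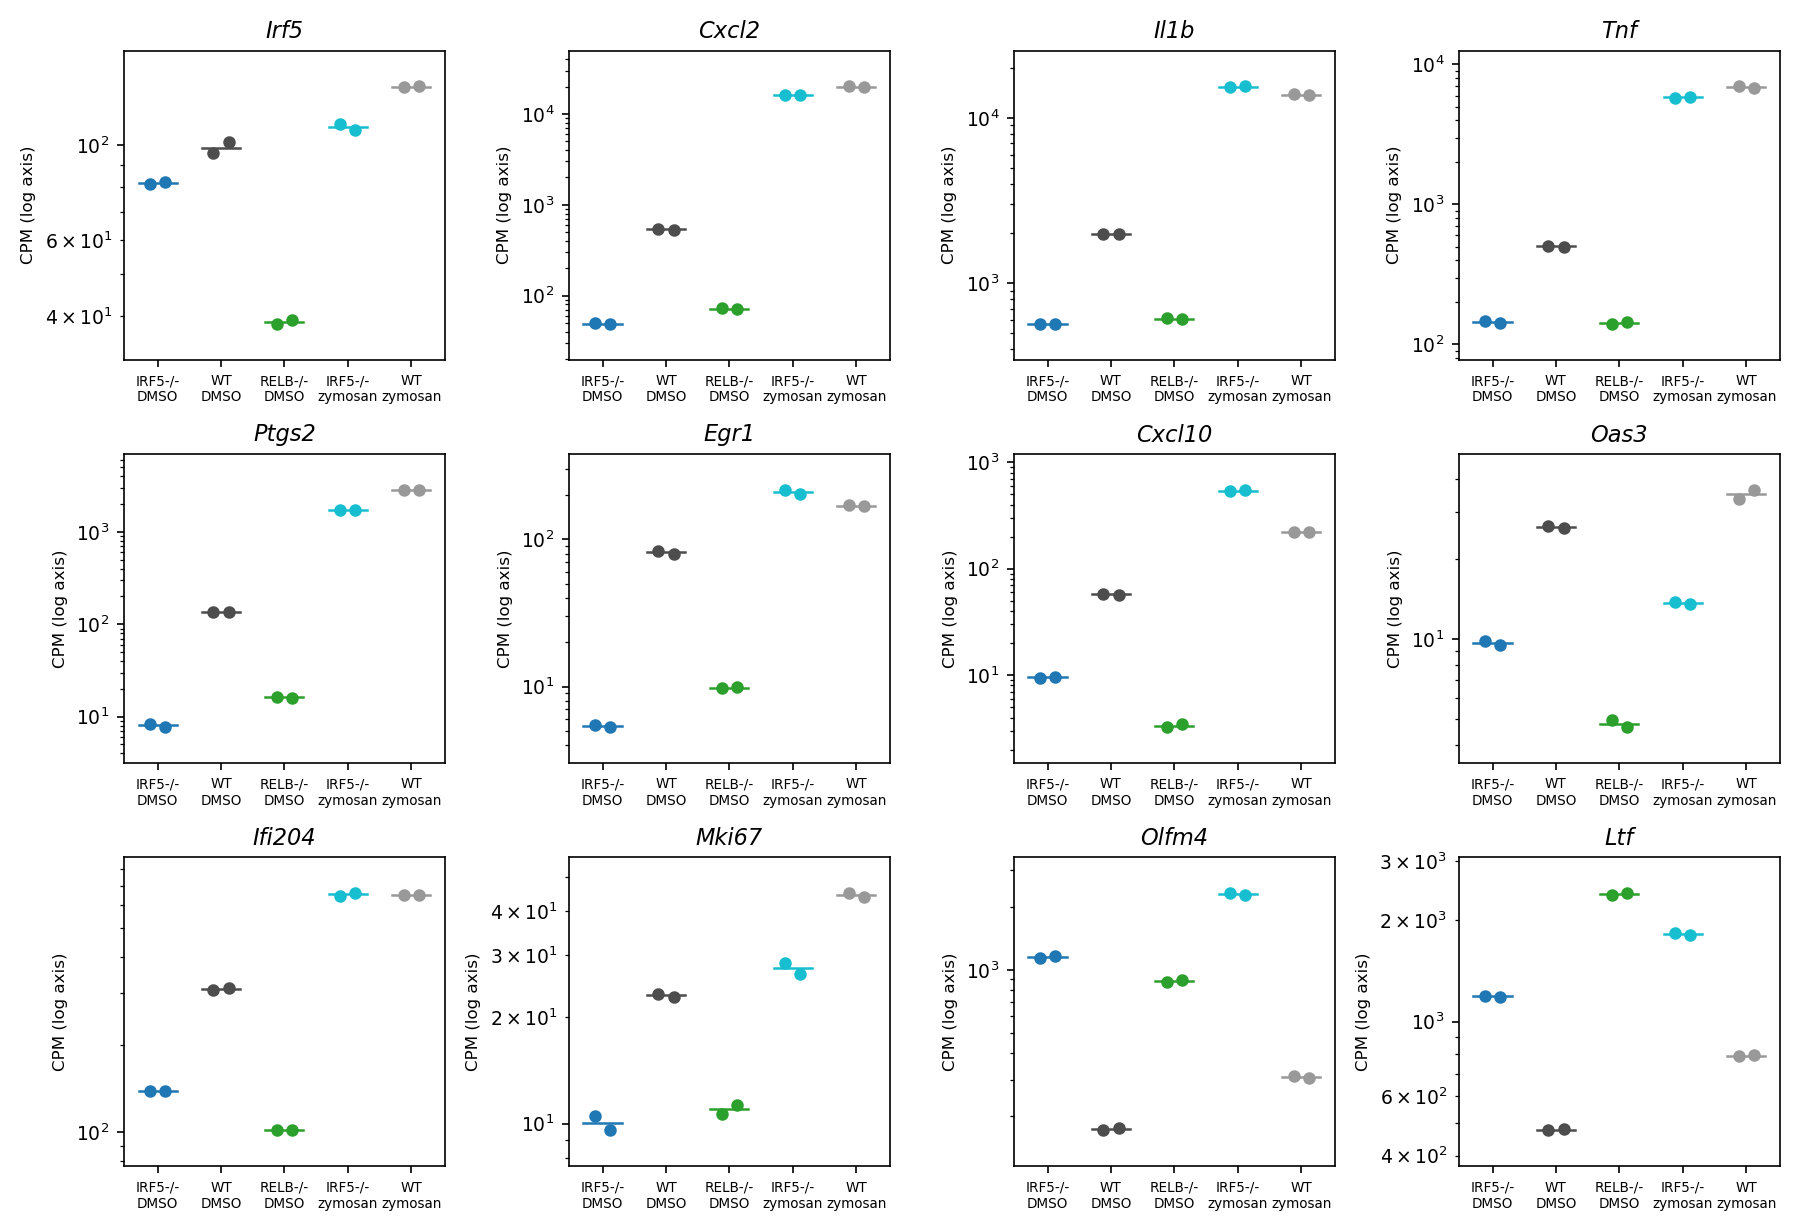
CPM on a log axis for 12 genes, with 1 point per library and a bar at the mean of 2 libraries, in IRF5-/-, wild-type and RELB-/- cells with DMSO and in IRF5-/- and wild-type cells with zymosan. The IRF5-/- and wild-type points with DMSO do not overlap in any of the 12 genes, and Olfm4 and Ltf are the 2 genes shown that were higher in IRF5-/-.

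Interferon-stimulated genes changed less and in both directions. Of 36 tested, 20 were called lower and 11 higher, 7 were 2-fold lower and none was 2-fold higher, with a median log2 change of -0.21. Over all genes tested 29.6% were called lower and 35.0% higher, and 1935 of 13779 were 2-fold lower and 759 2-fold higher. The counts of higher and of 2-fold lower genes therefore say little about this list, and no test against these shares was made. Oas3, a sensor of double-stranded RNA, measured 9.77 and 9.45 CPM in IRF5-/- and 26.5 and 26.2 CPM in wild type (-1.45 ± 0.08). Bst2, the virus-tethering protein tetherin, measured 2.12 and 1.98 CPM against 7.73 and 7.9 CPM (-1.93 ± 0.15), and the ubiquitin-like Isg15 9.01 and 8.76 CPM against 19.2 and 19.1 CPM (-1.11 ± 0.08). All 3 were lower in both IRF5-/- libraries. Oas1a had no count in IRF5-/- and was at least 19.8-fold lower, and Mx1 had 1 count there, a ratio of 28.8 (counting interval 4.8 to 1170). In contrast Cmpk2 and Psmb9 rose by 0.71 and 0.65.

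Genes of the p200 family of nucleic acid sensors were lower: all 9 members tested were called lower, 7 of them 2-fold, with a median log2 change of -1.37. Ifi204 had the highest level of the 9, at 138 and 138 CPM in IRF5-/- and 307 and 313 CPM in wild type (-1.17 ± 0.02). Ifi207 measured 5.89 and 5.44 CPM against 21.2 and 20.3 CPM (-1.87 ± 0.08), and Aim2, which triggers the inflammasome on DNA, fell least, from 122 and 119.6 CPM to 105 and 108 CPM (-0.18). These genes lie in 1 cluster and are similar in sequence, and only uniquely placed read pairs were counted, so their split of reads is uncertain. Among 10 interferon-inducible GTPases, 3 were called lower and 1 higher, a share close to the 29.6% of all genes called lower, and without IRF5-/- replicate 1 only 1 was called lower. Gbp7, a guanylate-binding protein that acts against intracellular microbes, was the one that rose, from 9.9 and 9.33 CPM to 28.7 and 28.9 CPM (1.59 ± 0.08), whereas Gbp5 fell from 1.49 and 1.72 CPM to 0.283 and 0.268 CPM (-2.53).

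Promoter sequences were read for the interferon-related genes, because interferon regulatory factors bind sites built from GAAA repeats. The letters GAAA, followed after any 2 bases by a second GAAA, were searched on both strands in RefSeq promoters of GRCm38.p6, from 250 bases before to 50 bases after the gene start, with overlapping matches counted. They occurred in 372 of 9518 promoters of genes tested (3.91%, exact 95% binomial interval 3.53 to 4.32). The share was 49 of 1424 (3.44%, 2.56 to 4.52) among 2-fold lower genes and 20 of 423 (4.73%, 2.91 to 7.21) among 2-fold higher genes, and both intervals include the share of all genes tested. In the union of the 3 interferon lists it was 27 of 42 (64.3%, 48.0 to 78.4). The 5 examples below, shown so that the matching letters can be seen in their context, were chosen after their values were seen and are printed from 5′ to 3′ along the gene's strand with the matching letters in capitals. Cxcl10, Isg15, Oas3 and Bst2 fell and Gbp7 rose. A match is a description of the letters and shows neither binding nor a cause.
Cxcl10 (chr5:92348840-92349139, - strand): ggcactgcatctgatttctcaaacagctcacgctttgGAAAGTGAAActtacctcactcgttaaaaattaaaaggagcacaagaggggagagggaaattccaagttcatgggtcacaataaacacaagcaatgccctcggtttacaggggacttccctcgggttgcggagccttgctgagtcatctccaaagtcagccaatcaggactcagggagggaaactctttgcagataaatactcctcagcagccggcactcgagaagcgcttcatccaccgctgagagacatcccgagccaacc
Isg15 (chr4:156200769-156201068, - strand): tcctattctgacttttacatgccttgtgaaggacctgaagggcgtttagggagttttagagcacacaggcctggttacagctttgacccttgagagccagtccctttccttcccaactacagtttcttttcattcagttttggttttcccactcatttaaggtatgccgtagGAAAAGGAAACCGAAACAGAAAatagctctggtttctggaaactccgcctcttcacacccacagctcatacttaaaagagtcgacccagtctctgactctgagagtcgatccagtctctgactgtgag
Oas3 (chr5:120777610-120777909, - strand): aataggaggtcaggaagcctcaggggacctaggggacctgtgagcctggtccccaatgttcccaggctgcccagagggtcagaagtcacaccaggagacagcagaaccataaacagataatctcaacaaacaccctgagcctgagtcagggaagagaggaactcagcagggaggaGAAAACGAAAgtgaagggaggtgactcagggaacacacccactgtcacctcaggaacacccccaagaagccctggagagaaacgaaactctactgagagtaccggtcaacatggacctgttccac
Bst2 (chr8:71537423-71537722, - strand): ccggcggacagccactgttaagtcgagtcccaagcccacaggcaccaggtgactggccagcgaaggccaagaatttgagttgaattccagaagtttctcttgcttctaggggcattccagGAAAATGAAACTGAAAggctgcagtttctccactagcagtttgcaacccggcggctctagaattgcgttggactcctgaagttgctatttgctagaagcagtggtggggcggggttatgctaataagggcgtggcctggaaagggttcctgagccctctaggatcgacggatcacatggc
Gbp7 (chr3:142530086-142530385, + strand): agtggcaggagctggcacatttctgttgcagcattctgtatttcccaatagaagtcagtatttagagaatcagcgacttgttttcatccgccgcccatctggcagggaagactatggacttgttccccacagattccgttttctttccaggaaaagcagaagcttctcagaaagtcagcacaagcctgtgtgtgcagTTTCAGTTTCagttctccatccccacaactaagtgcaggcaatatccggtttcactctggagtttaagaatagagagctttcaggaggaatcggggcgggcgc
The match began 213 bases before the gene start in Cxcl10, at 78, 72 and 66 bases before it in Isg15, where 3 matches overlap, at 75 in Oas3, at 130 and 124 in Bst2, and at 53 in Gbp7, where the letters lie on the opposite strand.

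Granule genes of the neutrophil itself moved in different directions by granule type. Specific granule genes were higher in 9 of 10 cases, 4 of them 2-fold, with a median log2 change of 0.75. Olfm4, a specific granule glycoprotein carried by a subset of neutrophils, measured 1139.6 and 1160.2 CPM in IRF5-/- and 172 and 175 CPM in wild type, 6.63-fold higher (2.73 ± 0.02, adjusted p = 1.6e-82). The iron-binding lactoferrin Ltf measured 1192 and 1188 CPM against 475 and 480.0 CPM (1.32 ± 0.02), and Camp, the precursor of the cathelicidin peptide, 215 and 204 CPM against 79.2 and 72 CPM (1.47 ± 0.03). Each IRF5-/- library exceeded each wild-type library in the 3 genes. Haptoglobin, Hp, was the member that fell (-0.25), and the change of Lyz2 (0.04) was so small that it turned negative in 3 of the alternative settings.

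Azurophil granule genes, which are switched on at the promyelocyte stage, were called lower in 7 of 11 cases and higher in 2, with a median log2 change of -0.67. Prtn3, the serine protease proteinase 3, fell from 44.1 and 43.7 CPM to 22.9 and 23.9 CPM (-0.91 ± 0.06), and Mpo, myeloperoxidase, from 19.3 and 17.3 CPM to 10.6 and 11.6 CPM (-0.72 ± 0.08). Elane was not called (1.1 and 1.53 CPM against 1.31 and 1.88 CPM). Genes of the gelatinase granule and of late maturation rose in 10 of 16 cases and fell in 6. Retnlg rose from 2359 and 2196 CPM to 4175 and 3978 CPM, and Padi4, which citrullinates histones in extracellular traps, from 406 and 409 CPM to 713 and 728 CPM (0.82 ± 0.02). Mmp8 and Mmp9, the granule's collagenase and gelatinase, rose by 0.35 and 0.39. Fpr1, the receptor of bacterial formyl peptides, fell from 876 and 879 CPM to 438 and 442 CPM, and the surface antigen Ly6g from 43.5 and 42.3 CPM to 30.6 and 29.7 CPM. The summed CPM of 10 neutrophil markers was 59900 to 61900 in IRF5-/- and 46400 to 48300 in wild type, and none of the 10 was at 0 in either group. Of 7 NADPH oxidase genes, 5 were called higher and none 2-fold, with 2 of 7 called higher under scaling by total counts and 3 of 7 without wild-type replicate 2.

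Factors that direct granulocyte development were mixed. Cebpa, which starts granulopoiesis, rose from 44.9 and 44.8 CPM to 80.9 and 80.8 CPM (0.85 ± 0.04), and Spi1, encoding PU.1, rose by 0.37. Cebpb, which acts in emergency granulopoiesis, fell from 1270.2 and 1250.0 CPM to 629 and 637 CPM (-0.99 ± 0.02). Klf4, a monocyte factor, fell from 17.3 and 16.4 CPM to 2.18 and 2.89 CPM (-2.73 ± 0.13), and Gfi1, a repressor needed for neutrophil fate, from 3.08 and 2.87 CPM to 0.595 and 0.83 CPM. Of 20 such factors tested, 13 were called lower and 5 higher, and Runx1 was not called.

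Proliferation genes were lower across the list. Of 26 cell cycle genes, 25 were called lower, 20 of them 2-fold, with a median log2 change of -1.28, and none was called higher. Mki67, a marker of dividing cells, measured 10.5 and 9.56 CPM in IRF5-/- and 23.3 and 22.9 CPM in wild type (-1.20 ± 0.08). Mcm3, a subunit of the replicative helicase, measured 2.21 and 1.42 CPM against 11.3 and 10.3 CPM (-2.58 ± 0.15), and Rrm2, which supplies deoxynucleotides, 2.78 and 1.55 CPM against 10 and 10.4 CPM (-2.24 ± 0.15). The groups did not overlap in any of the 3. Ribosome biogenesis factors were called lower in 13 of 16 cases, with Nop58 at -2.18 and Utp20 at -3.75 and a median of -1.18, although Polr1a, the largest subunit of RNA polymerase I, rose by 0.70. Heat shock genes were lower in 10 of 11 cases (median -0.87), among them Hsp90ab1 (-0.72) and Hspa5 (-0.62). Markers of progenitors were lower beside these, with 6 of 9 tested called lower and 2 higher and a summed level of 74.9 to 77.6 CPM in IRF5-/- against 110 to 117 CPM in wild type. Their part in the fall of cell cycle genes was not tested. Myb fell from 11.9 and 11 CPM to 3.77 and 3.96 CPM and Kit, the receptor of stem cell factor, from 6.58 and 7.52 CPM to 1.87 and 1.87 CPM, while Cd34 rose (0.56). Hoxa9 and Mycn had no count in IRF5-/-, and Mycn, at 4.62 and 3.95 CPM in wild type, was at least 103-fold lower. Mycn also had no count in RELB-/- cells and in the wild type of set 1, so its level set the wild type of set 2 apart from those lines too.

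Metabolic genes divided by pathway. Cholesterol synthesis and uptake genes were called higher in 13 of 16 cases and lower in 2, with a median log2 change of 0.59. Insig1, the sterol-regulated anchor of the pathway's transcription factor, rose from 116 and 115 CPM to 218 and 229 CPM (0.95 ± 0.03), and its groups did not overlap. Glycolysis genes were called lower in 12 of 18 cases and higher in 5, with a median of -0.37: Ldha, lactate dehydrogenase, fell from 487 and 480.0 CPM to 203 and 205 CPM (-1.25 ± 0.02) and the glucose transporter Slc2a1 from 295 and 287 CPM to 119.7 and 122 CPM (-1.27 ± 0.02), whereas Slc2a3 rose (0.59). Oxidative phosphorylation subunits changed little, with 9 of 21 called higher, 4 lower, none 2-fold and a median of 0.09. Of all genes tested, 35.0% were called higher and 29.6% lower. Under scaling by total counts 4 of the 21 were called higher.

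Olfm4 led the 15 largest increases among genes with a mean log2 CPM of 4 or more, and Cnst, A130014A01Rik, Ncbp1, Slc12a9 and Morc3 followed. Cnst, which encodes the connexin-recycling protein consortin, measured 148 and 147 CPM in IRF5-/- and 25 and 25.6 CPM in wild type (2.55 ± 0.04). Morc3, a nuclear ATPase that represses viral and interferon-related genes, measured 364 and 371 CPM against 84.4 and 87.9 CPM (2.09 ± 0.03). Ncbp1, the large subunit of the nuclear cap-binding complex, measured 177 and 179.9 CPM against 38.6 and 34.2 CPM (2.30 ± 0.04). All 3 were at least 4.26-fold higher with no overlap between the groups. The rest of the 15 were A130014A01Rik, Slc12a9, Ubr3, Zdhhc13, Wdfy2, H2-T24, Pign, Hip1, Xpo7, Abhd15 and Pcyt2, with log2 changes from 2.15 for Slc12a9 down to 1.76 for Pcyt2, apart from 2.31 for A130014A01Rik.

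Among the 15 largest decreases, chosen in the same way, Basp1, a membrane-bound growth-cone protein, led with 2.44 and 1.98 CPM in IRF5-/- against 138 and 133 CPM in wild type, 61.5-fold lower (-5.94 ± 0.06, adjusted p = 1.0e-76). Svil, an actin- and myosin-binding protein of the cell cortex, measured 5.66 and 5.52 CPM against 118 and 120.1 CPM (-4.41 ± 0.06), and the scaffold Ahnak 13.4 and 13.8 CPM against 105 and 108 CPM (-2.97 ± 0.05). In these genes wild-type libraries stood far above both IRF5-/- libraries. F10, coagulation factor X, fell from 377 and 373 CPM to 40.9 and 40.2 CPM, Adora2b, an adenosine receptor, from 67.8 and 69.4 CPM to 7.73 and 7.47 CPM, and Pou2f2, the transcription factor Oct-2, from 55.2 and 54.9 CPM to 8.07 and 7.9 CPM. The rest of the 15 were Ptgs2, Egr1, Cxcl2 and Ccrl2, given above, Upp1 (-3.55), Ralgds (-3.18) and the eosinophil ribonucleases Ear1, Ear2 and Ear6.

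Eosinophil and mast cell genes had the lowest median log2 change, -2.71, of the lists with at least 6 members tested. Of the list's 18 members 16 were tested, 15 were called lower, 14 of them 2-fold, and Siglecf was called higher (0.32). Prg2, the eosinophil major basic protein, measured 457 and 441 CPM in IRF5-/- and 2998 and 2926 CPM in wild type (-2.72 ± 0.02, adjusted p = 4.3e-85). Epx, eosinophil peroxidase, measured 74.1 and 75.9 CPM against 423 and 424 CPM (-2.50 ± 0.03), and the mast cell protease Cpa3 2.72 and 2.52 CPM against 17.4 and 18.4 CPM (-2.77 ± 0.11). The summed level of all 18 was 1310 CPM in each IRF5-/- library and 5150 to 5260 CPM in wild type, and Fcer1a, Mcpt4 and Tpsab1 were at 0 in IRF5-/- and none in wild type. Ear1, Ear2 and Ear6 are near-identical copies, so their individual levels are uncertain.

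Monocyte and macrophage markers were called lower in 13 of 15 cases, 8 of them 2-fold, with a median log2 change of -1.68. Mrc1, the mannose receptor of macrophages, and the complement gene C1qa had no count in either IRF5-/- library. Mrc1, at 2.98 and 4.11 CPM in wild type, was at least 86.6-fold lower, and C1qa at least 17.1-fold. C1qb had 1 count in IRF5-/- against 3.24 and 3.13 CPM in wild type, a ratio of 231 (counting interval 41.1 to 9160). Csf1r, the receptor for macrophage colony-stimulating factor, fell from 696 and 705 CPM to 443 and 444 CPM (-0.66 ± 0.02), and Apoe rose (0.78). Dendritic cell and MHC class II markers summed to 20.3 to 20.5 CPM against 64.9 to 66.0 CPM, most of it Cd74, the invariant chain, and 5 of these 12 were at 0 in IRF5-/- and 2 in wild type. Only 6 of the 12 were tested, of which 2 were called lower and 1, Clec9a, was called higher (2.71). Megakaryocyte markers summed to 6.34 to 6.94 CPM against 29.2 to 29.5 CPM. Erythroid markers summed to 25.9 to 26.8 CPM against 51.5 to 52.6 CPM, nearly all of it the transferrin receptor Tfrc, with 8 of 10 at 0 in IRF5-/- and 4 in wild type. Summed B cell markers were higher in IRF5-/-, 55.5 to 58.5 CPM against 28.2 to 28.4 CPM, through Ighm, and Ms4a1 and Pax5 were at 0 in all 4 libraries. Markers of T and NK cells summed to 3.29 to 3.37 CPM against 3.62 to 4 CPM, and those of fibroblasts and endothelium to 22.8 to 23 CPM against 23.2 to 23.3 CPM. The part of these cell type markers in the gene groups described above was not tested.

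The same genotypes were also compared after zymosan, in libraries that share no sample with the DMSO groups but come from the same lines. There 4082 genes (29.6%) were called higher and 4245 (30.8%) lower, with 802 (5.82%) and 2023 (14.7%) at 2-fold. With scaling by total counts 32.6% of these calls were higher, and with TMM scaling 49.0%. Of the 2-fold lower genes with DMSO, 1249 were also 2-fold lower after zymosan, which is 64.5% of the DMSO list and 61.7% of the zymosan list. Of the 2-fold higher genes, 400 were shared, 52.7% and 49.9% of the lists. Reversals at 2-fold were few, with 11 genes lower with DMSO and higher after zymosan and 3 the other way.

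The difference between the effects was tested as an interaction, zymosan minus DMSO, in which 4583 genes (33.3%) were called, 2272 higher and 2311 lower. Higher calls made up 49.6% of them, 39.1% with scaling by total counts and 61.3% with DESeq2, and without any 1 of the 4 zymosan libraries the lower calls numbered 1299 to 1402 and the higher calls 2749 to 2920, so that 67.4% to 68.6% were higher. The interaction uses the same 4 DMSO libraries as the comparison with DMSO, so a low value there raises it. Of 18 cytokine genes, 10 had an interaction called higher and 2 lower. Cxcl2 reached 16042 and 16023 CPM in IRF5-/- and 20082 and 19868 CPM in wild type with zymosan, a log2 change of -0.32 where it had been -3.45 with DMSO, and the interaction was 3.14 ± 0.03 (adjusted p = 2.1e-81). Il1b reached 15311 and 15499 CPM against 13864 and 13757 CPM, so that with TMM scaling IRF5-/- libraries were now the higher ones (0.16). Egr1 turned likewise, with 217 and 204 CPM against 171 and 168 CPM, and Cxcl10 with 532 and 554 CPM against 223 and 223 CPM (1.28). The median log2 change of all genes after zymosan was -0.02 with TMM scaling and -0.19 with scaling by total counts. The sign of the small Il1b change therefore depended on the scaling. Of the NF-kB list 15 of 16 genes had an interaction called higher and 1 lower, and of the immediate early list 18 of 19 and none, where 16.5% of all genes tested were called higher and 16.8% lower. With TMM scaling the median log2 change of NF-kB genes went from -1.01 with DMSO to 0.23 with zymosan, and that of immediate early genes from -1.69 to 0.05. Scaling by total counts lowers changes after zymosan, as given above for all genes, so the sign of the immediate early median there is not settled.

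Other lists had medians of the same sign in both conditions. Cell cycle genes had a median log2 change of -1.28 with DMSO and -1.68 with zymosan, ribosome biogenesis factors -1.18 and -1.41, and eosinophil and mast cell markers -2.71 and -2.37. Specific granule genes had medians of 0.75 and 0.82 and cholesterol genes 0.59 and 0.76. With zymosan Prg2 measured 795 and 784 CPM in IRF5-/- against 4718 and 4749.8 CPM in wild type. Olfm4 measured 2329 and 2282 CPM against 313 and 305 CPM. TMM factors ran from 1.299 to 1.4131 with DMSO and from 0.6783 to 0.7705 with zymosan, so CPM are read within a condition only. Irf8 changed by -4.12 after zymosan on the log2 scale, and its interaction was not called (0.78 ± 0.83).

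**Figure D3:**
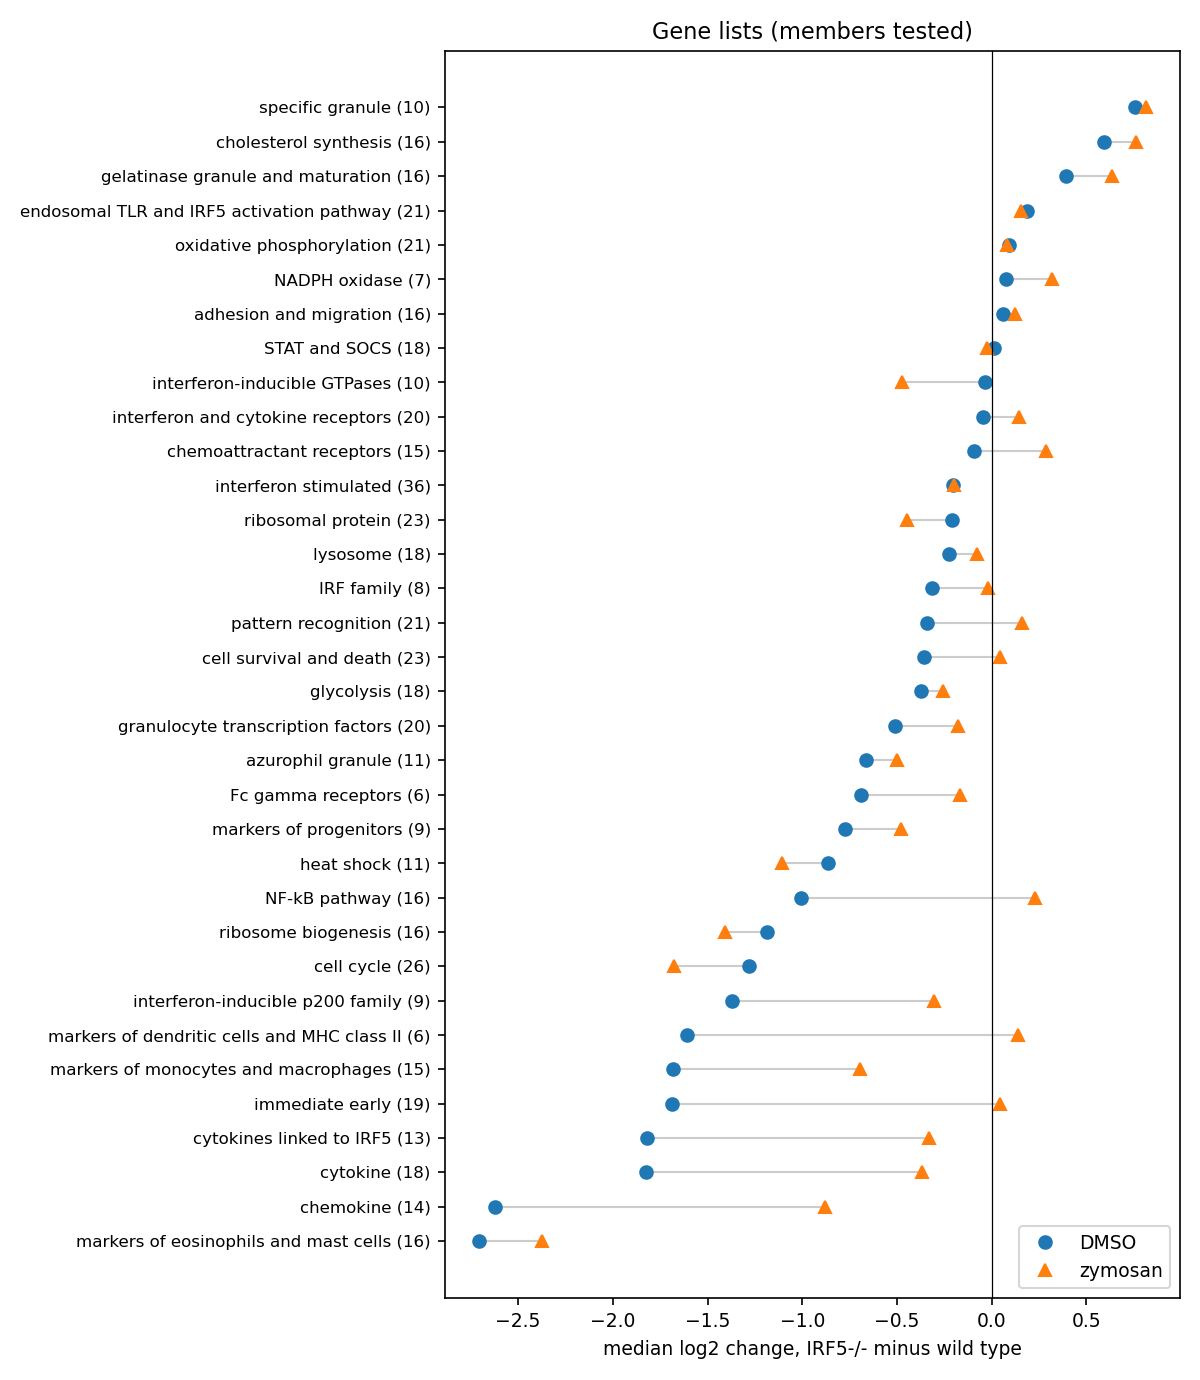
Median log2 change, IRF5-/- minus wild type, of each gene list with at least 6 members tested, with the number tested in brackets, circles for DMSO and triangles for zymosan. The circles of immediate early, NF-kB, cytokine and chemokine genes lie well to the left of their triangles, while both symbols lie close together for specific granule genes and for eosinophil and mast cell markers.

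RELB-/- cells were the other knockout of the set and give a second reference with DMSO. RELB is an NF-kB subunit. In the direct comparison 3465 genes (25.1%) were called higher in IRF5-/- and 3454 (25.1%) lower, with 608 (4.41%) and 771 (5.6%) at 2-fold. Higher calls were 50.1% of the total, and 34.0% with scaling by total counts. Comparisons of either knockout with wild type share the 2 wild-type libraries, so their values are set side by side only. Tnf measured 139.9 and 143 CPM in RELB-/- and 146 and 143 CPM in IRF5-/-, a difference that was not called (0.03 ± 0.02). Il1b measured 612 and 605 CPM in RELB-/-, slightly above IRF5-/- (-0.10 ± 0.02), and Egr1 9.79 and 9.9 CPM (-0.87 ± 0.09). Wild type was higher than both knockouts in each of these genes. Several lists also moved against wild type in RELB-/- cells, where the median over all genes was 0.04. Cytokines linked to IRF5 had a median log2 change of -2.14 in RELB-/- and -1.82 in IRF5-/-, and chemokines -2.50 and -2.62. NF-kB genes had -1.17 and -1.01, immediate early genes -1.48 and -1.69, and specific granule genes 1.35 and 0.75. Eosinophil and mast cell markers had -3.84 and -2.71, and monocyte and macrophage markers -1.63 and -1.68. Cell cycle genes had -1.35 and -1.28, and p200 family genes -1.61 and -1.37. Signs differed for cholesterol genes (-0.40 and 0.59) and Fc gamma receptor genes (0.35 and -0.69), among others. Of 26 cell cycle genes, 4 were called higher in IRF5-/- than in RELB-/- and 3 lower.

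Interferon-stimulated genes differed between the knockouts. Of 36 tested, 28 were called higher in IRF5-/- than in RELB-/- and none lower, with a median log2 difference of 0.75. Rsad2, the antiviral enzyme viperin, measured 10.3 and 10.7 CPM in IRF5-/-, 1.11 and 1.42 CPM in RELB-/- and 17.2 and 17.6 CPM in wild type. Rtp4 measured 18.8 and 17.8, 1.4 and 1.76 and 26 and 26.2 CPM in the same order, and Ifit1 6.37 and 6.61, 0.569 and 0.893 and 7.45 and 8.49 CPM. In all 3 the IRF5-/- libraries lay below wild type. The RELB-/- libraries lay far below both, by 3.06, 3.54 and 3.16 on the log2 scale between the knockouts. Cholesterol genes were called higher than in RELB-/- in all 16 cases (median 0.94), and eosinophil and mast cell markers in 11 of 16. Basp1 (38.7 and 37.9 CPM in RELB-/-) and Svil (54.6 and 55 CPM) were lower in IRF5-/-, with log2 differences of -4.12 and -3.29. Tlr5, the flagellin receptor, measured 0.113 and 0.187 CPM in IRF5-/-, 13.1 and 14.5 CPM in RELB-/- and 3.6 and 3.06 CPM in wild type. Morc3 measured 70.6 and 68.1 CPM and Cnst 25 and 24.1 CPM in RELB-/-, so 2 of the largest increases of IRF5-/- cells were not present in the other knockout, where both genes were at or below the wild-type levels given above.

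Levels across all 8 ER-Hoxb8 lines with DMSO place these values. They come from 3 count tables scaled together, so CPM differ from those above, and the lines outside set 2 were counted in other sets. Prg2 averaged 599.8 CPM in IRF5-/- and 4115 CPM in the wild type of set 2, but also 1728 CPM in the wild type of set 1 and between 172 and 401 CPM in the other 5 knockouts. Egr1 averaged 7.19 CPM in IRF5-/-, 114 and 384 CPM in the wild-type lines and from 13.3 to 100.4 CPM in the other knockouts. For both genes every knockout line lay below both wild-type lines, which is a description of 8 lines with 2 libraries each. Il1b did not follow this order, since KLF6-/- reached 3046 CPM, above 2768 CPM in the wild type of set 2. Olfm4 averaged 1536 CPM in IRF5-/-, 1194 CPM in RELB-/- and 2488 CPM in KLF6-/-, against 241 and 197 CPM in the wild-type lines and 125 CPM in JUNB-/-. Morc3 was highest in IRF5-/- at 490.5 CPM, followed by 330.1 CPM in CEBPB-/-, with the other 6 lines from 93.4 to 147 CPM. Irf5 itself averaged 109 CPM in IRF5-/-, above 79.4 CPM in the wild type of set 1 and below 137 CPM in that of set 2 and 152 CPM in RUNX1-/-.

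**Figure D4:**
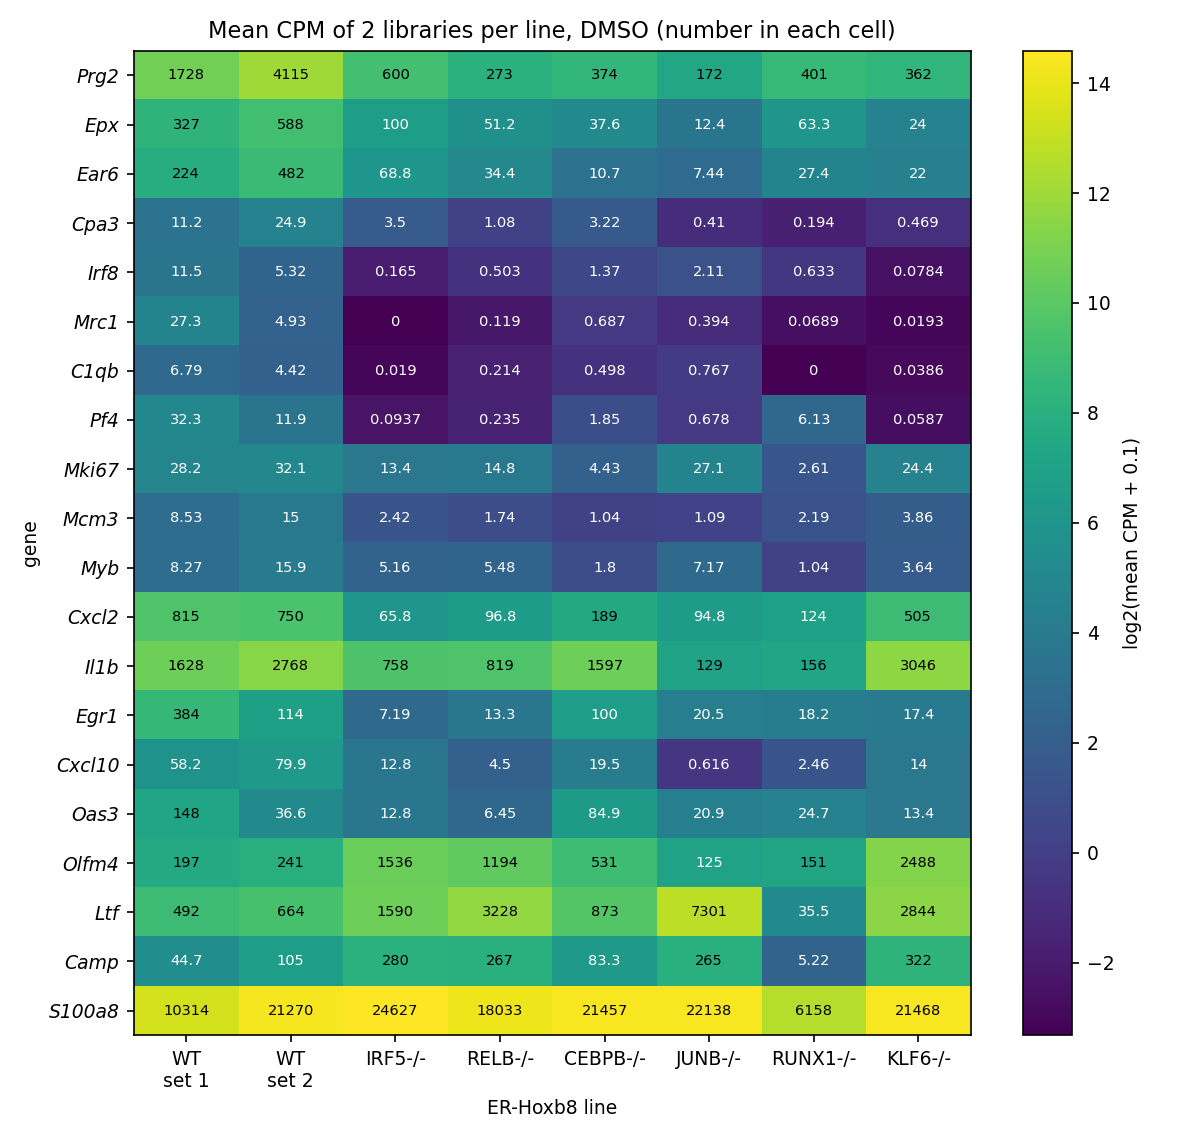
Mean CPM of 2 libraries (number in each cell, colour on a log2 scale) for 20 genes in the 8 ER-Hoxb8 lines with DMSO, scaled together. Prg2, Mrc1 and Egr1 are highest in the 2 wild-type lines, and Olfm4 is highest in IRF5-/-, RELB-/- and KLF6-/-.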

How the data were processed

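RNA-seq libraries of ER-Hoxb8 neutrophils were analysed from the gene counts the authors deposited. Per the submitters' processing notes, STAR, featureCounts and DESeq2 were used with the mouse builds mm10 and GRCm38. Per the file headers, featureCounts 1.6.3 counted read pairs per gene on the reverse strand (strand setting 2) with a minimum mapping quality of 255. In STAR output that value marks uniquely placed reads, so genes with near-identical copies (Ear1, Ear2 and Ear6, or the p200 family) may lose reads. The libraries were made from poly-A RNA, per the labels' protocols.

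The 12 libraries of set 2 (6 groups of 2, 24031483 to 34263252 counted read pairs) were fitted in 1 model in edgeR 4.0.16 (R 4.3.3): filterByExpr with a minimum count of 10 and a minimum total of 15, TMM scaling, group means without a replicate term, the quasi-likelihood test and Benjamini-Hochberg adjustment over 13779 genes, with a threshold of 0.05. All adjusted p-values in the text come from this test. Gene symbols were found for 50376 of 50600 gene identifiers (99.56%). Comparisons across lines used a joint TMM scaling of the set 1, set 2 and later tables. Per-sample columns not used numbered 24 among those of set 1 and 12 among the later ones, which repeat columns of set 2. In simulated counts the IRF5-/- means with DMSO were set to those of wild type, and 100 genes per size were changed, up or down in equal number. There 62.6% of 1.5-fold and 83.8% of 2-fold changes were found, over genes of all levels, with 12 false calls. Far more genes were called in the data, mostly lower at 2-fold, so the false calls of the simulation do not carry over.

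The members and the gene lists were chosen with earlier results of these data known. Genes were named by this rule: the interferon regulatory factors, the 15 largest called rises and falls at a mean log2 CPM of at least 4 with no overlap, up to 4 called members with the largest change in each list, 5 measured genes on each side of Irf5, sex-linked and the 10 most abundant transcripts, and the 3 strongest interactions. Other list members given by value (such as Tnf, Il1b, Nfkbia, Cxcl10, Mki67, Prg2 and Epx) were picked after their values were seen. Where a group had no count, a bound was computed against 3 counts over the group, and with 1 to 3 counts a ratio with an exact 95% counting interval, which covers counting error only. Alternatives were RLE and total-count scaling, DESeq2 1.42.0, limma 3.58.1 voom, no filter on low counts, only the 4 libraries compared, a replicate block, and leaving out each library.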

Additional observations from a re-analysis of the deposited data

Results flagged for a closer look

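The results below were picked out because the effect of the IRF5-/- label differed between DMSO and zymosan by an interaction term in edgeR's quasi-likelihood test (Benjamini-Hochberg adjusted p under 0.05). The interaction was called in 4583 genes. That is 33.3% of all genes tested. It was called in 574 of the 1935 genes that were 2-fold lower with DMSO (29.7%) and in 183 of the 759 that were 2-fold higher (24.1%), both shares under that of all genes. The genes were chosen on the same DMSO libraries that enter the interaction, so the direction of their interactions is partly set by the choice and nothing is read from it.

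The 3 genes with the smallest interaction p among 2-fold called genes were Cxcl2, Ccrl2 and Acod1, all lower with DMSO. For Cxcl2 the log2 change was 3.14 higher with zymosan than with DMSO. For Ccrl2 the difference was 3.01, and IRF5-/- libraries held 6147 and 6128 CPM after zymosan against 5127 and 5007 CPM in wild type. Acod1, which encodes the enzyme that makes itaconate, measured 225 and 226 CPM in IRF5-/- and 1235 and 1260.4 CPM in wild type with DMSO, and the difference of its log2 changes was 2.56. In Ccrl2 both IRF5-/- libraries lay below wild type with DMSO and above it with zymosan. The sets of libraries given DMSO and zymosan share no sample.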

How the results depend on the processing

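Over the alternatives the genes called higher in IRF5-/- with DMSO numbered 3719 to 4890 and those called lower 3513 to 4947, with 591 to 773 and 1790 to 2196 at 2-fold. The median log2 change of all genes moved from 0.04 to -0.07 with scaling by total counts. Of 194 named genes, 2081 values kept their direction and side of the threshold, 37 lost the call, 3 gained it and 8 changed sign. The sign changes were Cyba -0.0034, Rac1 -0.0399, Actb -0.0255, Lyz2 -0.0712 and Lcp1 -0.0333 with total-count scaling, Lyz2 -0.026 without a filter, and Rac1 -0.0034 and Lyz2 -0.0347 with only the 4 libraries. Of the list counts 425 stayed within 1.5 times and 15 did not. With total-count scaling 9 endosomal Toll-like receptor pathway genes (14 as reported), 2 NADPH oxidase genes (5) and 4 oxidative phosphorylation genes (9) were called higher; without a filter and with only the 4 libraries these were again 2 and 4 for the last 2 lists. With only the 4 libraries 1 dendritic cell marker was called lower (2 as reported). DESeq2 and the 4 libraries called 1 sex-linked transcript higher (2 as reported), and DESeq2 called 1443 interactions lower (2311). Without a filter the spread of chromosome medians was 0.0936 (0.2145 as reported). Leaving out 1 library gave 1 to 3 lower interferon-inducible GTPases, 3 to 5 higher NADPH oxidase genes, 1 to 2 lower dendritic cell markers, 1 to 2 higher sex-linked transcripts and 1299 to 2157 lower interactions; the lone library of an arm is then assumed to vary like the other groups. The cause of these shifts was not tested. Same-numbered replicates deviated together with r = 0.123 between the compared groups, the largest value, and -0.067 to 0.055 elsewhere. These values do not settle whether the numbers pair the samples, and the main fit did not pair them. A replicate block gave 4798 higher and 4043 lower calls. The depth leaves genes under about 1 CPM, 657 of the 2-fold lower genes, resting on few counts.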
